A study of Homo sapiens with 9 samples.

Results

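The HOX genes code for homeodomain transcription factors that give cells of the embryo their position along the head-to-tail axis. They lie in the HOXA, HOXB, HOXC and HOXD clusters, on separate chromosomes, and each gene carries the number of its place in the cluster, from 1 to 13. Members were the probe sets whose only gene symbol was one of 37 listed HOX genes, and 28 of these genes were measured, by 46 of the 45259 probe sets with a single symbol, among 18239 genes in all. They comprised all 9 listed genes of HOXB, all 9 of HOXC and all 9 of HOXD, but 1 of 10 listed genes of HOXA, HOXA2. The other 9 HOXA genes, from HOXA3 to HOXA13, were not analysed here.

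The study varied BRD1, a scaffold of histone acetyltransferase complexes, in HEK293T cells, a line derived from human embryonic kidney that carries SV40 large T antigen. There was 1 array each of cells with stable expression of the short isoform, BRD1-S, cells with stable expression of the long isoform, BRD1-L, and untreated cells. There were 3 arrays of cells transfected with BRD1 siRNA and 3 with control siRNA, in pairs labelled Qiagen, Dharmacon 1 and Dharmacon 2. The controls are called mock in the labels and scrambled siRNA in the study's supplement, which gives pools of 4 siRNAs, 5.5 nM for the Qiagen kit, 12.5 nM for the Dharmacon kit, and harvest at 24 h. The study describes 3 knockdown experiments and calls 2 of its siRNA control experiments independent. Whether all 3 controls were independent is not given in the sources used here. If the 3 pairs were separate experiments, p-values over those arrays measure the spread between experiments. The arrays comprise 2 of each kind from 1 kit and 1 from the other, but the controls did not group by kit. The Qiagen and Dharmacon 1 controls differed past 1.5-fold in 1.23% of all genes. They differed from the Dharmacon 2 control in 11.5% and 12.4%, respectively. The spread in a fit with kit therefore includes the difference between the 2 Dharmacon cultures. Whether a stable line was 1 clone is not given in the sources used here. The isoform lines and each pair taken alone have 1 array on each side, so their differences carry neither a replicate check nor a test.

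As background, HOX genes are switched on in the order in which they lie along the cluster, and their domains are then held by opposing chromatin complexes. Polycomb complexes keep the silent genes silent through methylation of histone H3 at lysine 27 and ubiquitination of H2A, while Trithorax group complexes such as KMT2A keep the active genes active. In mouse and zebrafish, the acetyltransferase KAT6A and its scaffold BRPF1, a close relative of BRD1, maintain Hox expression. HOX proteins bind DNA poorly on their own and pair with PBX and MEIS homeodomain proteins.

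BRD1 behaved as labelled on every array. Its mean log2 intensity was 9.27 with the short isoform and 9.30 with the long one, against 7.61 in untreated cells. It was 7.07, 6.94 and 6.75 with BRD1 siRNA, against 7.82, 7.79 and 7.75 with control siRNA, in the pairs labelled Qiagen, Dharmacon 1 and Dharmacon 2. Of the HEK293 markers, VIM, KRT18, NEFL, NEFM and MYC lay above 5.5 on every array, while PAX2 and KRT8 straddled that level. Markers chosen for other cell types (PTPRC and CD3E of leukocytes, ALB of hepatocytes, GFAP of astrocytes, KRT1 of keratinocytes, MYOG of myoblasts) lay between 3.30 and 4.23 on all 9 arrays. In the wider list of 37 measured genes of other tissues, 2 had means above 5.5, the keratin KRT10 and TNNI3. The BRD1-L array differed from untreated cells in HEK293 markers. NEFM was at 6.0 and NEFL at 6.67 in BRD1-L cells, against 9.75 and 10.02 in untreated cells. KRT8 was at 7.53 in BRD1-L cells, against 4.87 in untreated cells. Past 1.5-fold, 2 of 7 markers were higher and 3 lower in BRD1-L cells, where 6.21% and 4.22% of all genes were. In BRD1-S cells 1 was higher and 2 lower, where 2.08% and 0.647% were. The Qiagen pair had 1 higher and 2 lower, where 6.89% and 6.73% were. The Dharmacon 1 pair had 1 lower, where 3.44% were, and the Dharmacon 2 pair 0.

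HEK293T cells expressed most of the measured HOX genes. A gene was taken as above background where the mean of its probe sets over the 9 arrays exceeded 5.5 on the log2 scale, close to the median of all values (5.47), and 50% of all genes met this. Of the 28 HOX genes, 24 did, namely 9 of 9 in HOXB, 8 of 9 in HOXC, 7 of 9 in HOXD and 0 of 1 in HOXA. The 4 genes below it were HOXA2 at 4.41, HOXD1 at 4.37, HOXC12 at 3.61 and HOXD12 at 3.49. By position, both genes measured at 12 were below background in their clusters, between expressed neighbours at 11 and 13, as was the single gene measured at position 1. At position 2, HOXB2 was above background and HOXA2, its counterpart in the hindbrain, was not as a mean, though the brighter of its 2 probe sets was at 5.78 in BRD1-L cells and 5.56 in untreated cells and averaged 5.35 over the 9 arrays. Every measured gene at positions 3 to 11 and at 13 was above it.

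**Figure D1:**
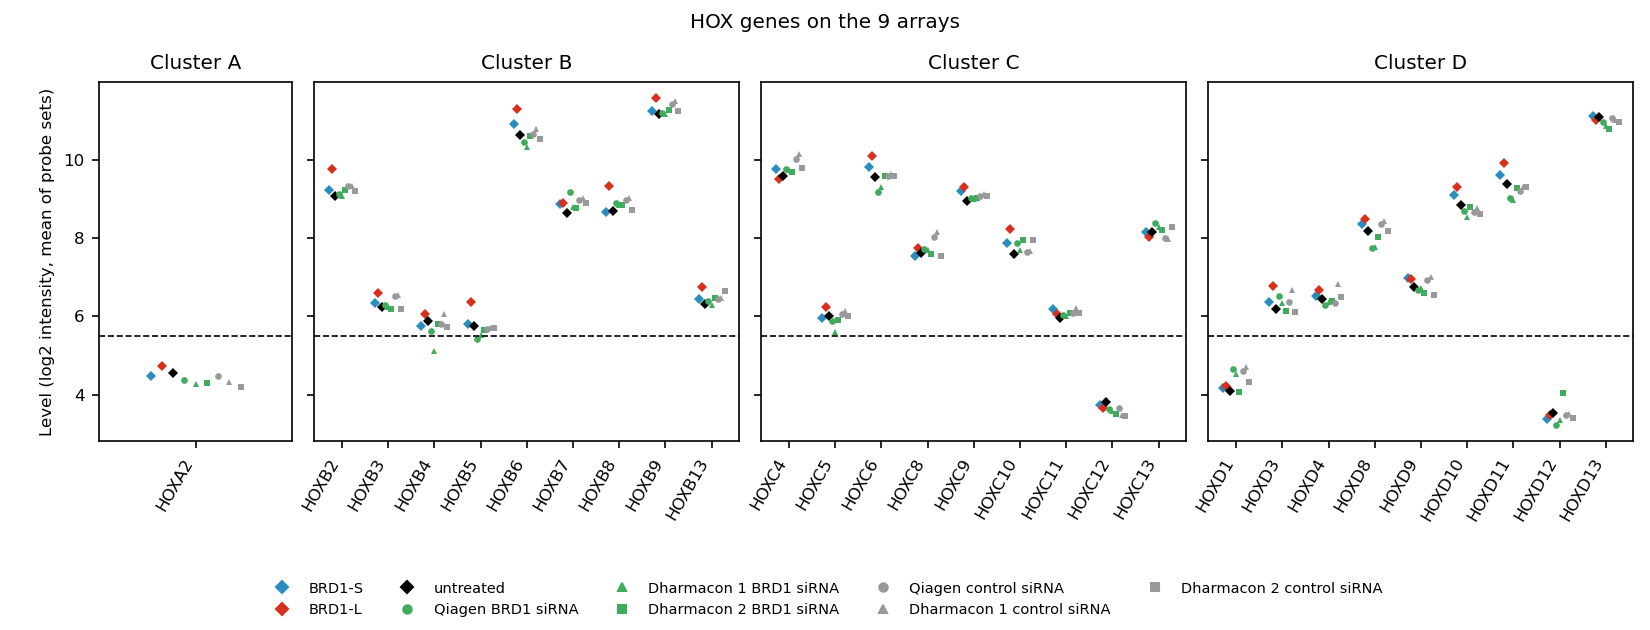
Level of each measured HOX gene (vertical axis, log2 intensity, mean of its probe sets) on the 9 arrays, by cluster and position along the horizontal axis; each point is 1 array and the dashed line marks 5.5. HOXA2, HOXC12, HOXD1 and HOXD12 lie below the line on all arrays, and the BRD1-L array (red) is the highest of the 9 for 16 of the 24 genes above background.

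Levels are read here only against 5.5, since probes of different genes differ in brightness. In HOXB, the anterior gene HOXB2 lay between 9.06 and 9.77, and the central genes HOXB6 between 10.33 and 11.29, HOXB7 between 8.64 and 9.18, HOXB8 between 8.65 and 9.34 and HOXB9 between 11.16 and 11.57. HOXB3 (6.18 to 6.58) and the posterior HOXB13 (6.29 to 6.74), a gene of prostate and tail bud, were nearer the line. HOXB5 and HOXB4 lay just inside it, with means of 5.73 and 5.76 that average bright and dim probe sets. The brightest HOXB5 probe set lay between 6.74 and 8.10 and the brighter HOXB4 probe set between 5.95 and 6.65, so both genes had a probe set above 5.5 on every array.

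In HOXC, HOXC4 (9.49 to 10.15), HOXC6 (9.18 to 10.10) and HOXC9 (8.93 to 9.30) were far above background on all arrays. HOXC8 (7.53 to 8.15), HOXC10 (7.59 to 8.22) and HOXC13 (7.98 to 8.37), a regulator of hair and nail keratins, were also well above it, and HOXC5 (5.60 to 6.22), read by 1 probe set, was near it. HOXC11 (5.94 to 6.21) averaged a probe set at 7.71 to 8.13 and another at 4.07 to 4.45. In HOXD, the limb genes HOXD13 (10.78 to 11.12), HOXD11 (8.96 to 9.92) and HOXD10 (8.52 to 9.30) were far above background. HOXD8 ranged from 7.75 to 8.48, HOXD9 from 6.54 to 7.01, HOXD4 from 6.30 to 6.83 and HOXD3 from 6.10 to 6.78. Of the 28 genes, 16 had 1 probe set, and in 5 of the 24 expressed genes some probe sets were above 5.5 and others not.

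RefSeq promoters (GRCh38.p14) were matched for 11 of the 28 genes. Shown are the 150 bases before the annotated start of HOXD8, the gene with the lowest fitted siRNA difference, of HOXC4 and HOXC5, which share that start, and of HOXD11, a posterior gene that was higher in BRD1-L cells than on the other arrays. Capitals mark CCAAT, the box bound by NF-Y, or TGATTNAT, the joint site of HOX and PBX proteins, on either strand.
HOXD8, chr2:176129555-176129704, plus strand: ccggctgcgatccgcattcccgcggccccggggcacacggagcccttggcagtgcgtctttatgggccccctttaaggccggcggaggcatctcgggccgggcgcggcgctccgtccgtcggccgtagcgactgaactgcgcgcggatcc
HOXC4 and HOXC5, chr12:54016738-54016887, plus strand: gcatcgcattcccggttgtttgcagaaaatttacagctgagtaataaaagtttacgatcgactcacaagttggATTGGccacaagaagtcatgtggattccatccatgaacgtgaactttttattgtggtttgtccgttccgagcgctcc
HOXD11, chr2:176107130-176107279, plus strand: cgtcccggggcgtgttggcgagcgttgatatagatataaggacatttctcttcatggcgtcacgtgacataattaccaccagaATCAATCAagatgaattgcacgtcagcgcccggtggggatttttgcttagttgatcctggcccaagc
In the 250 bases before the start, CCAAT was present for 9 of the 11 genes, against 32% of all 35116 promoters in the table, and the exceptions were HOXD8 and HOXD11. TGATTNAT was present for HOXD11 and HOXA2, against 2.48% of all promoters. These windows held a median of 21 CG pairs for the 11 genes, from 4 in HOXD4 to 31 in HOXD1, against 11 over all promoters, and HOXD8 had 28. HOXC4 and HOXC5 share 1 window here, so the 11 genes are not independent sequences, and a match to these letters is a description only.

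Cells expressing BRD1-L had higher HOX levels than untreated cells. At the study's rule, in which 1 probe set past 1.5-fold is enough for a gene to count, 10 of 28 HOX genes were higher and 0 were lower, where the same rule took 6.21% of all genes as higher and 4.22% as lower. The 10 were HOXB2, HOXB3, HOXB5, HOXB6, HOXB8, HOXB13, HOXC6, HOXC10, HOXD3 and HOXD10. The median difference over the 24 expressed genes was 0.36 on the log2 scale, with 21 above 0, against a median of 0.0021 over all expressed genes, of which 50.3% were above 0.

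HOXB2, which patterns the hindbrain, was at 9.77 in BRD1-L cells, against 9.06 in untreated cells, a 1.63-fold difference. It was at 9.23 in BRD1-S cells, at 9.12, 9.08 and 9.23 with BRD1 siRNA, and at 9.32, 9.33 and 9.19 with control siRNA, so the BRD1-L array was the highest of the 9 and the untreated array the lowest. HOXB6 was at 11.29 in BRD1-L cells, against 10.64 in untreated cells, with BRD1-S cells at 10.90 and the siRNA and control arrays between 10.33 and 10.78. HOXB8, which acts in blood progenitors and the spinal cord, was at 9.34 in BRD1-L cells, against 8.69 in untreated cells, while BRD1-S cells were at 8.65 and the siRNA and control arrays lay between 8.72 and 9.01. For all 3 genes the BRD1-L array was above each of the others. In bulk RNA, more cells that express a gene and more of its RNA per cell cannot be told apart.

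HOXB5 and HOXB13 rested on some of their probe sets. The brightest of the 3 HOXB5 probe sets was at 8.10 in BRD1-L cells, against 7.25 in untreated cells, another differed by 0.70, and the dimmest by 0.30. Of the 4 HOXB13 probe sets 1 differed by 1.05, at 7.70 in BRD1-L cells against 6.65 in untreated cells, and the other 3 by 0.13 to 0.29. That HOXB13 probe set also varied among control siRNA arrays, at 6.65, 6.85 and 7.41. HOXB3 passed with 1 of 4 probe sets, HOXC6 with 1 of 3 and HOXD10 with 1 of 2. On the mean of the probe sets, 6 genes differed by more than 1.5-fold, namely HOXB2, HOXB5, HOXB6, HOXB8, HOXC10 and HOXD3.

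By cluster, the median difference of the expressed genes in BRD1-L cells was 0.43 in HOXB (9 of 9 above 0), 0.19 in HOXC (6 of 8) and 0.30 in HOXD (6 of 7). By position, it was 0.29 at 2 to 4, 0.43 at 5 to 8 and 0.39 at 9 to 13. The genes below untreated cells were HOXC4 (-0.10), HOXC13 (-0.13) and HOXD13 (-0.07). HOXC4 and HOXC5, which share the printed promoter window, lay on opposite sides of the arrays without a change of BRD1. HOXC4 was at 9.49 in BRD1-L cells, the lowest of the 9 arrays, against 9.59 in untreated cells and 9.77 to 10.15 with control siRNA. HOXC5 was at 6.22 in BRD1-L cells, the highest of the 9, against 6.0 in untreated cells and 6.0 to 6.12 with control siRNA. HOXD11 was at 9.92 in BRD1-L cells, against 9.37 in untreated cells and 9.21 to 9.30 with control siRNA.

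**Figure D2:**
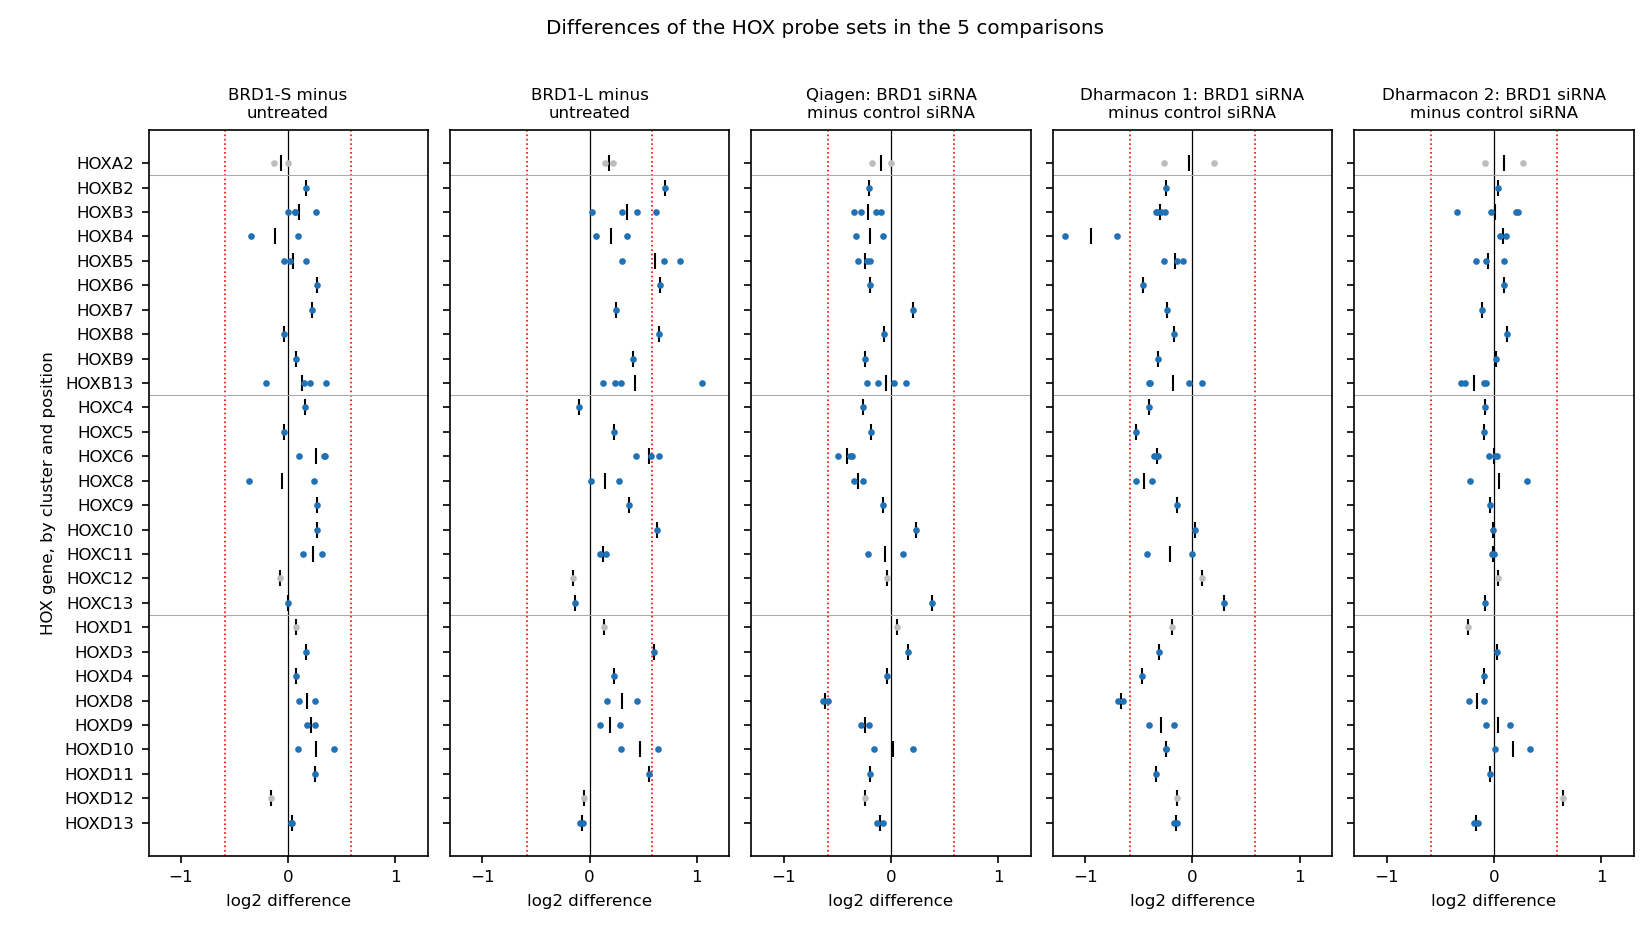
Log2 difference (horizontal axes) of each HOX probe set (points) and their mean per gene (black bars) in the 5 comparisons, genes by cluster and position down the page; dotted lines mark 1.5-fold, and grey points are genes below background. In BRD1-L cells 21 of 24 expressed genes lie to the right of 0, and in the Dharmacon 1 pair 22 of 24 lie to the left.

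The untreated array was the lowest of the 9 for 6 of the 24 expressed genes. Set against all 4 arrays without a change of BRD1, the untreated and the 3 control siRNA arrays, 16 of 24 expressed HOX genes were higher in BRD1-L cells than on any of them, where 30.3% of all expressed genes were. Relative to the averaged control siRNA arrays, the median HOX difference was 0.19 over the 24 expressed genes and 0.17 over all 28 measured. In that comparison 6 genes passed 1.5-fold, namely HOXB5, HOXB6, HOXB13, HOXC6, HOXD10 and HOXD11. With each array centred on its median, 3 genes passed against untreated cells, HOXB2, HOXB5 and HOXB13. NEFM, NEFL and KRT8 differed on this same array by -3.75, -3.35 and 2.66. The part of what lies behind these marker differences in the HOX differences was not tested.

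Cells expressing BRD1-S showed smaller HOX differences than 1.5-fold throughout. Of 28 HOX genes, 0 were higher and 0 lower at the same rule, where 2.08% of all genes were higher and 0.647% lower. The median over the 24 expressed genes was 0.16, and 19 of 24 were above 0, against 48.4% of all expressed genes, within a range from -0.12 for HOXB4 to 0.27 for HOXC9. The probe set that differed most was 1 of the 2 for HOXD10, at 10.82 in BRD1-S cells against 10.40 in untreated cells. Above all 4 arrays without a change of BRD1 were 7 of 24 genes, namely HOXB5, HOXB6, HOXC6, HOXC9, HOXD10, HOXD11 and HOXD13, where 17.7% of all expressed genes were. Relative to the averaged control siRNA arrays, the median of the 28 genes was 0.0051.

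Set directly against BRD1-S cells, BRD1-L cells were higher past 1.5-fold in 3 HOX genes and lower in 0, where 3.43% and 3.4% of all genes were. The 3 genes were HOXB5, HOXB8 and HOXB13. All 9 HOXB genes were above 0 in this comparison, with a median of 0.33, against medians of 0.15 in HOXC (5 of 8 above 0) and 0.15 in HOXD (5 of 7). HOXC4 was the lowest, at -0.26. BRD1 itself differed by 0.03 between these arrays, and the comparison again has 1 array on each side.

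BRD1 siRNA was accompanied by lower HOX levels in the Qiagen pair and the Dharmacon 1 pair, and not in the Dharmacon 2 pair. The median over the 24 expressed genes was -0.19 in the Qiagen pair with 19 below 0, -0.30 in the Dharmacon 1 pair with 22 below 0, and -0.0065 in the Dharmacon 2 pair with 14 below 0. Over all expressed genes the medians were -0.0057, -0.0043 and -0.03 in the Qiagen, Dharmacon 1 and Dharmacon 2 pairs, with 50.8%, 50.9% and 61.2% below 0, so the share of HOX genes below 0 in the Dharmacon 2 pair was no larger than over all expressed genes. BRD1 differed by -0.75, -0.84 and -1.0 in the same order. Past 1.5-fold, 1 gene was lower and 0 higher in the Qiagen pair, where 6.73% of all genes were lower and 6.89% higher. In the Dharmacon 1 pair 2 were lower and 0 higher, where 3.44% were lower and 6.79% higher. In the Dharmacon 2 pair 0 were lower, where 1.83% were, and only HOXD12 counted as higher, where 1.31% did, with both of its arrays below 5.5.

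HOXD8, a gene of the trunk, was the only HOX gene lower past 1.5-fold in both the Qiagen pair and the Dharmacon 1 pair. It was at 7.75 with BRD1 siRNA against 8.36 with control siRNA in the Qiagen pair, at 7.77 with BRD1 siRNA against 8.44 with control siRNA in the Dharmacon 1 pair, and at 8.02 with BRD1 siRNA against 8.18 with control siRNA in the Dharmacon 2 pair. Untreated cells were at 8.18, BRD1-S cells at 8.36 and BRD1-L cells at 8.48, so the 3 BRD1 siRNA arrays were the lowest of the 9. Its 2 probe sets differed by -0.59 and -0.63 in the Qiagen pair, by -0.65 and -0.69 in the Dharmacon 1 pair, and by -0.23 and -0.09 in the Dharmacon 2 pair. Both carry the array maker's marks s or x for probes that can match more than 1 transcript, and HOXD8 was the only 1 of the 28 genes read by such probe sets alone.

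HOXB4, which expands blood stem cells when forced, was lower past 1.5-fold in the Dharmacon 1 pair alone, at 5.12 with BRD1 siRNA against 6.07 with control siRNA. Its 2 probe sets differed there by -1.18 and -0.70, and the dimmer was below 5.5 on both arrays. In the Qiagen pair HOXB4 was at 5.61 with BRD1 siRNA and 5.81 with control siRNA, and in the Dharmacon 2 pair at 5.81 with BRD1 siRNA and 5.73 with control siRNA. HOXC6 was at 9.18, 9.30 and 9.57 with BRD1 siRNA, against 9.59, 9.63 and 9.58 with control siRNA, in the Qiagen, Dharmacon 1 and Dharmacon 2 pairs. The posterior gene HOXC13 ran the other way in the Qiagen and Dharmacon 1 pairs, at 8.37, 8.28 and 8.19 with BRD1 siRNA, against 7.99, 7.98 and 8.27 with control siRNA in the same order of pairs.

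**Figure D3:**
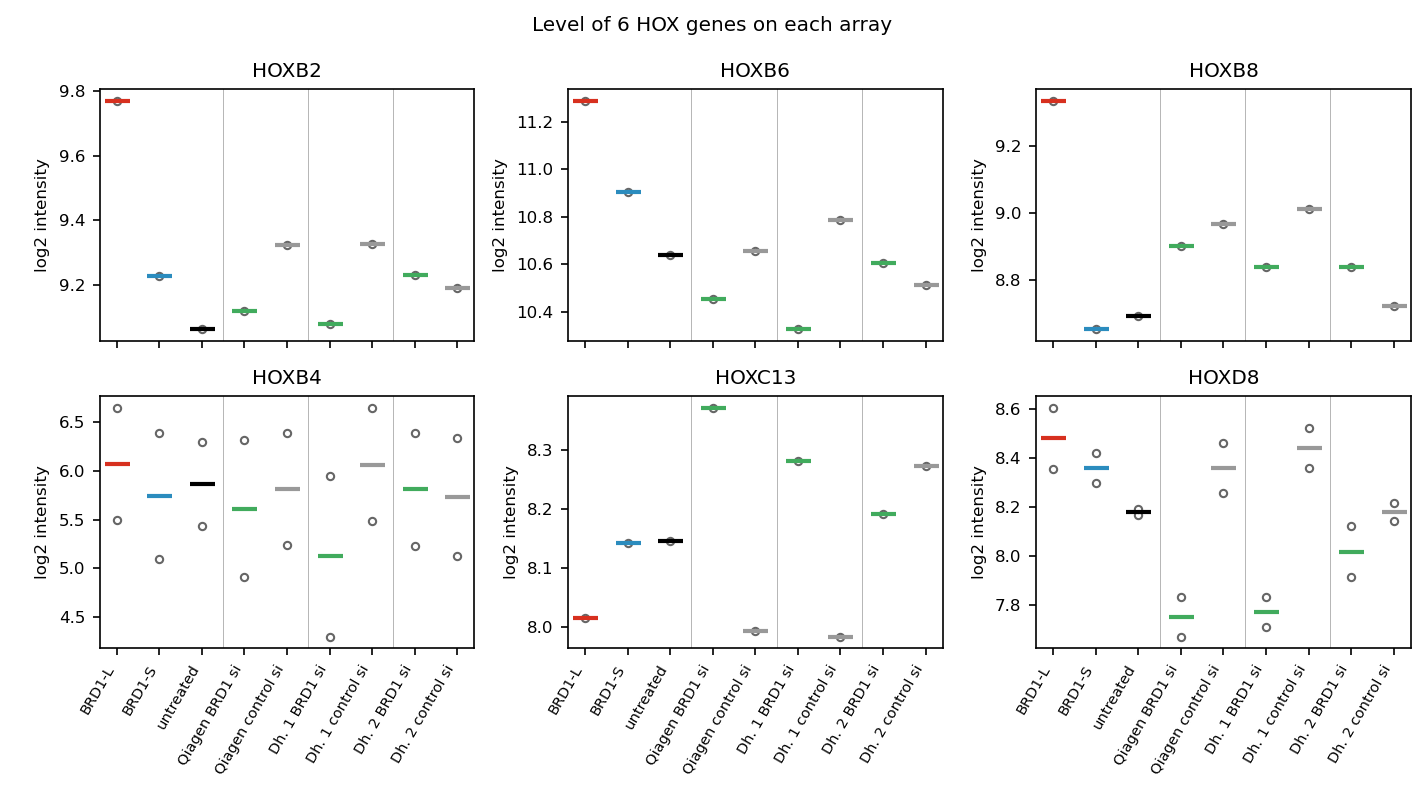
Log2 intensity (vertical axes, a separate scale in each panel) of 6 HOX genes on each array, with BRD1-L, BRD1-S and untreated cells at the left and then BRD1 siRNA (BRD1 si) beside control siRNA (control si) for the Qiagen, Dharmacon 1 (Dh. 1) and Dharmacon 2 (Dh. 2) pairs; bars are gene means and circles probe sets. HOXB2, HOXB6 and HOXB8 are highest in BRD1-L cells, and HOXD8 is lowest on the 3 BRD1 siRNA arrays.

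By position, the medians in the Qiagen pair were -0.20 at 2 to 4, -0.22 at 5 to 8 and -0.06 at 9 to 13. In the Dharmacon 1 pair they were -0.35, -0.39 and -0.20 for the same stretches. By cluster, they were -0.20 in HOXB, -0.13 in HOXC and -0.10 in HOXD in the Qiagen pair, and -0.25, -0.27 and -0.31 in the Dharmacon 1 pair. In all 3 pairs 11 of 24 expressed HOX genes were lower with BRD1 siRNA, where 20.9% of all expressed genes were, and 0 were higher in all 3, where 11.4% were. All BRD1 siRNA arrays were below all control siRNA arrays for 6 genes, namely HOXB5, HOXC4, HOXC5, HOXC6, HOXC9 and HOXD8, where 6.89% of all expressed genes were.

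The control siRNA arrays differed among themselves in HOX level. The median of the 24 genes was 0.15 between the Dharmacon 1 and Dharmacon 2 controls (20 above 0), 0.08 between the Qiagen and Dharmacon 2 controls (17 above 0) and -0.07 between the Qiagen and Dharmacon 1 controls (2 above 0). Over all expressed genes 53%, 48.7% and 37% were above 0 in the same comparisons, and the median between the Qiagen and Dharmacon 1 controls was -0.03. Past 1.5-fold in either direction, 1 HOX gene differed between the Dharmacon 1 and Dharmacon 2 controls, HOXC8, where 12.4% of all genes did. Between the Qiagen and Dharmacon 2 controls 1 did, HOXB13, where 11.5% of all genes did, and between the Qiagen and Dharmacon 1 controls 0 did, where 1.23% of all genes did. HOXC8, a gene of the thoracic trunk, was at 8.02, 8.15 and 7.53 on the Qiagen, Dharmacon 1 and Dharmacon 2 controls and at 7.61 in untreated cells. Over the 3 controls the SD of a HOX gene had a median of 0.13, against 0.11 over all expressed genes.

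Each BRD1 siRNA array was also set against untreated cells and all controls together. Below all 4 arrays without a change of BRD1 were 8 of 24 with Qiagen BRD1 siRNA, where 28.8% of all expressed genes were, 10 of 24 with Dharmacon 1, where 19.5% were, and 4 of 24 with Dharmacon 2, where 26.2% were. HOXB5, HOXC5 and HOXD8 were in all 3 of these groups. HOXB2, for example, was lower than its control in the Qiagen and Dharmacon 1 pairs yet above untreated cells. Housekeeping HPRT1 and the HEK293 marker MYC also set cultures apart, HPRT1 at 11.79 and 11.78 on the Qiagen and Dharmacon 1 controls against 12.31 to 12.61 elsewhere. MYC was at 12.79 and 12.78 with BRD1 siRNA and 12.64 and 12.66 with control siRNA in those pairs, against 10.31 to 11.50 elsewhere. The part of these differences between cultures in the HOX values was not tested.

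Fitted over the 3 pairs with limma, kit as covariate and Benjamini-Hochberg adjustment over 18239 genes, no HOX gene passed an adjusted p of 0.05, nor did any other gene (0%). At an unadjusted limma p under 0.05 there were 2 of 28 HOX genes, both lower, and 894 of all genes (4.9%). HOXD8 differed by -0.48 ± 0.11 (SE, n = 3 arrays each), with a 95% interval from -0.76 to -0.20, a limma p of 0.0054 and an adjusted p of 0.869. HOXC5 differed by -0.27, with an interval from -0.52 to -0.02 and a limma adjusted p of 0.869, but its interval included 0 with centred arrays, after quantile normalization, over genes above 5.5 and with a variance trend, and without any 1 array other than the Dharmacon 2 BRD1 siRNA array. The intervals of the other 26 genes included 0. BRD1 itself, at -0.86 ± 0.09 with a limma p of 5.6e-05, also had an adjusted p of 0.869.

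**Figure D4:**
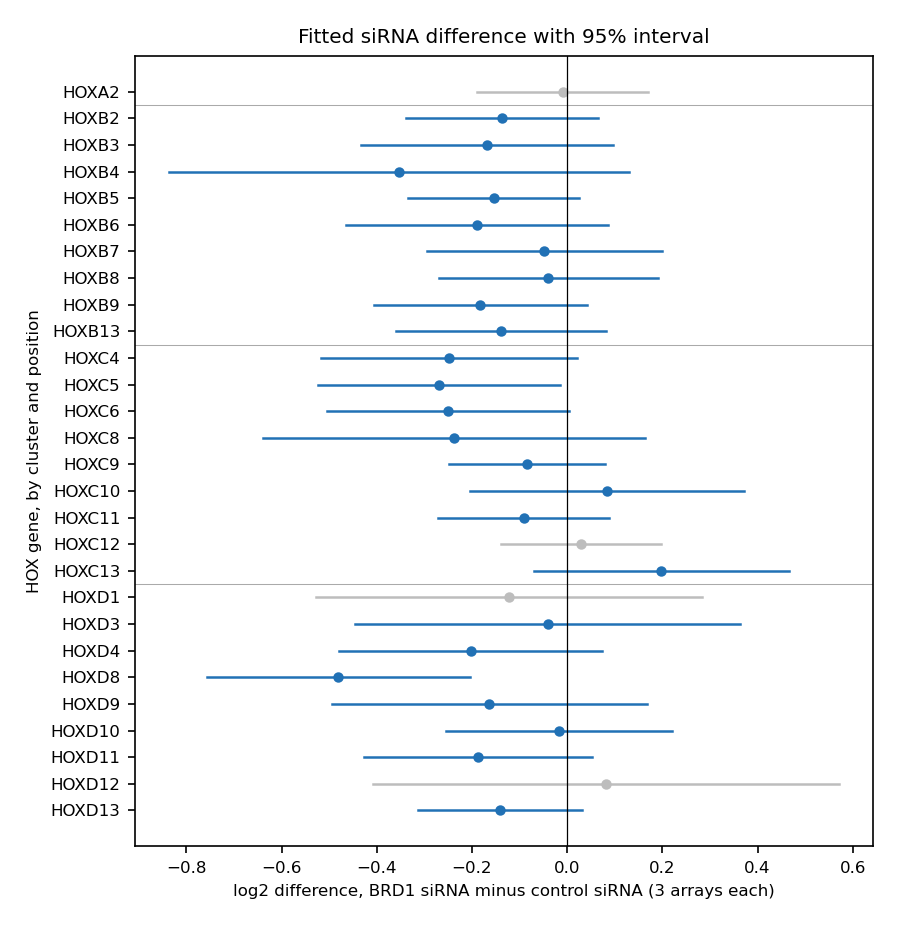
Fitted log2 difference, BRD1 siRNA minus control siRNA (horizontal axis), with its 95% interval from limma for each measured HOX gene, by cluster and position down the page (3 arrays on each side; grey genes are below background). The intervals of HOXD8 and HOXC5 lie below 0, that of HOXC5 not under all alternatives, and those of the other 26 genes include 0.

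Without the Dharmacon 2 control array, 33 genes of all those tested passed in limma but still 0 HOX genes, and HOXD8 had an adjusted p of 0.117. In that fit 7 HOX genes had an unadjusted limma p under 0.05, 6 of them lower and HOXC13 higher, where 14.5% of all genes did. Without the Dharmacon 2 BRD1 siRNA array, 6 HOX genes had an unadjusted limma p under 0.05, where 10.4% of all genes did, and 0 passed. The siRNA effect did not differ between kits at an adjusted p of 0.05 for any HOX gene (limma interaction, smallest unadjusted p 0.082 for HOXB7), in a test whose spread comes from the Dharmacon arrays alone.

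The partners of HOX proteins were expressed too. PBX2 (7.98 to 8.48), PBX3 (8.38 to 9.49), MEIS1 (6.70 to 7.13) and MEIS2 (6.99 to 7.70) were above background on all arrays. PBX3 was at 9.49 in BRD1-L cells, against 8.71 in untreated cells, with all of its probe sets past 1.5-fold, and lay between 8.38 and 9.00 on the siRNA and control arrays. MEIS2 was at 7.70 in BRD1-L cells against 7.24 in untreated cells. The MEIS and PREP list had 3 of 5 members above background.

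Chromatin regulators of the clusters were mostly expressed. Of 24 Polycomb genes measured, 21 were above background. Past 1.5-fold, 3 were higher and 0 lower in BRD1-L cells, and 3 higher and 4 lower in the Qiagen pair. In the Dharmacon 1 pair 3 were higher and 0 lower, and in the Dharmacon 2 pair 0 of either. Over all genes, shares higher and lower were 6.21% and 4.22%, 6.89% and 6.73%, 6.79% and 3.44%, and 1.31% and 1.83% in the same order. Of 17 Trithorax genes, 13 were above background, with 0 higher and 1 lower in BRD1-L cells. They had 1 higher and 1 lower in the Qiagen pair, 1 higher in the Dharmacon 1 pair and 1 lower in the Dharmacon 2 pair. KMT2A lay between 7.39 and 7.92. All 8 members of the list of MYST complexes with BRPF scaffolds were above background. Past 1.5-fold, 1 was higher and 1 lower in BRD1-L cells, with a list median of 0.20, and 1 was lower in the Qiagen pair. In BRD1-S cells, where 2.08% of all genes were higher and 0.647% lower, and in both Dharmacon pairs 0 passed. The shares given above for the Polycomb genes apply to the other lists here as well. KAT6A lay between 8.53 and 8.71 and BRPF1 between 8.63 and 8.94, a narrow range for these 2 genes over the 9 arrays. All 8 boundary and looping genes, CTCF and cohesin, were above background, with 0 past 1.5-fold in BRD1-L cells and 1 lower in the Dharmacon 1 pair.

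Retinoic acid induces HOX genes in the embryo, and 5 of the 18 measured genes of its pathway and of CDX input were higher in BRD1-L cells past 1.5-fold, with 0 lower, where 6.21% of all genes were higher, and the median of the 18 was -0.03. The same list had 3 higher and 2 lower in the Qiagen pair, 4 higher and 1 lower in the Dharmacon 1 pair, 0 in the Dharmacon 2 pair, and 2 higher and 0 lower in BRD1-S cells. Shares of all genes higher and lower were 6.89% and 6.73%, 6.79% and 3.44%, 1.31% and 1.83%, and 2.08% and 0.647% in the same order. RARB, a receptor that is itself a retinoic acid target, was at 6.54 with BRD1-S and at 6.40 with BRD1-L, against 5.79 in untreated cells, but lay between 6.33 and 6.52 with control siRNA. ALDH1A2, which makes retinoic acid, was at 8.73 in BRD1-L cells against 7.84 in untreated cells, with controls at 8.20 to 8.58. CRABP2, its carrier, was at 6.01 in BRD1-S cells against 5.09 in untreated cells, and at 5.27, 5.17 and 6.55 on the controls. CYP26A1, which breaks retinoic acid down, was at 8.15, 8.03 and 7.37 with BRD1 siRNA in the Qiagen, Dharmacon 1 and Dharmacon 2 pairs, against 8.78, 8.94 and 7.55 with control siRNA, and at 7.33 in untreated cells. CDX2, a homeodomain activator of central HOX genes, was the only ParaHox list member above background of 8, at 8.21 to 8.44.

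Around the clusters, 8 of 12 neighbouring genes were above background. Past 1.5-fold, 1 was higher and 0 lower in BRD1-L cells, and 1 higher and 3 lower in the Qiagen pair. In the Dharmacon 1 pair 1 was higher and 1 lower, and in the Dharmacon 2 pair 0 higher and 1 lower. Over all genes, shares higher and lower were 6.21% and 4.22%, 6.89% and 6.73%, 6.79% and 3.44%, and 1.31% and 1.83% in the same order. SKAP2, beside HOXA, was the higher one in the Dharmacon 1 pair, by 0.69. The antisense RNA HOXB-AS3 of the HOXB cluster was near background, from 5.17 in BRD1-L cells, the lowest of the 9 arrays, against 5.74 in untreated cells, to 5.88 with Dharmacon 2 BRD1 siRNA. Its difference in BRD1-L cells, -0.57, ran against that of the coding HOXB genes there. Of 37 measured genes of other tissues, 2 were above 5.5, KRT10 and TNNI3, and the median of the list was 3.72.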

How the data were processed

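RNA of HEK293T cells was hybridised to 9 Affymetrix U219 arrays. The authors deposited log2 intensities. Their supplement describes scaling of probes by the mean intensity of each array for the study's comparisons, and whether the deposited values were made this way, how probes were summarised and how background was removed is not given in the sources used here. Array means of the log2 values ran from 6.25 to 6.30. Values ran from 2.80 to 14.47, and array medians from 5.41 to 5.53, with no detection calls, so background was judged by level alone and the small number of arrays limits precision. Probe sets with several symbols (1327) or none (2800) were left out, and a gene's value is the mean of its probe sets. Groups follow the labels. Single arrays were compared by the study's 1.5-fold rule (0.585 on the log2 scale), and the siRNA arrays with limma 3.58.1 in R 4.3.3 (Benjamini-Hochberg, 0.05), checked on simulated data. Arrays of 1 pair deviated together (correlations across genes 0.333, 0.224 and 0.333 for Qiagen, Dharmacon 1 and Dharmacon 2). The Dharmacon 1 BRD1 siRNA array correlated nearly as much, 0.215, with the Qiagen control. The other correlations across pairs ran from -0.391 to -0.00976. The pair was therefore a block in an alternative fit. Promoters are RefSeq sequences of GRCh38.p14. Python 3.11.15, numpy 2.4.6, pandas 2.3.3 and matplotlib 3.10.9 were used.

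The members, lists, named genes and alternatives were chosen with earlier results of these data known. Named are all measured HOX genes, BRD1, the cofactors PBX and MEIS, KAT6A, BRPF1, KMT2A, the cell type markers, and genes of the other lists with all probe sets past 1.5-fold one way and the brighter array above 5.5. HOXB-AS3, CDX2, KRT10, TNNI3 and the array values of HPRT1 were chosen after their values were seen. Alternatives were centred arrays, quantile normalization, a 2-fold threshold, the mean of the probe sets, leaving out dim probe sets or dim genes, the control siRNA arrays as control, a variance trend, no kit term, the Dharmacon arrays alone, the pair as a block, each array left out, and other levels of background.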

Additional observations from a re-analysis of the deposited data

How the results depend on the processing

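The count of HOX genes above background ranged from 21 to 24 over its alternatives, 21 at a threshold of 6. For BRD1-L against untreated cells the count of higher genes, 10, became 3 with centred arrays, 6 on the mean of the probe sets, 1 at 2-fold and 6 relative to the averaged control siRNA arrays, and the median of the 28 genes, 0.27, became 0.37 over probe sets above 5.5 and 0.17 against the control siRNA arrays. The BRD1-S median, 0.11, became 0.0051 against the control siRNA arrays. Lower genes numbered 0 at 2-fold in the Qiagen pair, and in the Dharmacon 1 pair 4 with centred arrays, 4 after quantile normalization and 1 at 2-fold, with a centred median of -0.32. In the Dharmacon 2 pair the median, -0.0038, was 0.088 with centred arrays and 0.030 after quantile normalization, and the count of higher genes was 0 at 2-fold and 0 over probe sets above 5.5. Apart from the stricter rules and filters themselves, the cause was not tested. With the pair as a replicate block, 0 HOX genes passed in limma. The median stayed at -0.14, which a block of 3 balanced pairs cannot change. No gene at all passed with or without the block, so comparing calls cannot show what the pairing did. An unadjusted limma p under 0.05 was found for 3 HOX genes and 1471 of all genes with the block, against 2 and 894 without. The interval of HOXC4 then ran from -0.46 to -0.03. Leaving out each siRNA array kept the count at 0, with medians from -0.18 to -0.07. The lack of detection calls limits what can be said of HOXC5 and of the dim probe sets of other genes.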
